A study of Homo sapiens with 414 samples.

Results

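The 45 genes described here code for the proteins that copy DNA in S phase. They were picked by name, under a rule that uses no measured value, though earlier results of these data were known when the list was made. All 45 were found among the 19097 human genes of the single-cell tables and the 19084 of the bulk table. H1 and H9 are human embryonic stem cell lines, kept undifferentiated in E8 medium on Matrigel. Messenger RNA was measured in 92 single H1 cells of passages 20 to 30, in 91 single H9 cells of passages 25 to 35 and in 48 bulk H1 libraries of passage 16. The cells were caught on a microfluidic chip that copies poly-A RNA into full-length cDNA, and the same indexed cDNA was sequenced at 24 and again at 96 libraries per lane. Bulk libraries were made by ligation of adapters to cDNA primed with random hexamers on fragmented poly-A RNA. The labels give no treatment and no genetic change for any group.

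Before S phase, the origin recognition complex (ORC2 to ORC6 here) marks replication origins, and CDC6 and CDT1 load the ring-shaped helicase MCM2 to MCM7 onto them. At the start of S phase, MCM10 and the GINS complex help turn the helicase on, polymerase alpha-primase lays primers, RFC loads the sliding clamp PCNA, and polymerases delta and epsilon extend the strands while RPA coats unwound DNA. Many of these genes are known targets of E2F transcription factors, and the cell cycle of embryonic stem cells is known for a short G1 phase and a large share of cells in S phase.

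Promoters are shown because shared promoter letters are a feature that the choice of genes did not use. A RefSeq table (GRCh38.p14) held the 250 bases before the start of transcription and the first 50 bases after it for 39 of the 45 genes. An E2F-type motif (TTTGGCGC, TTTCCCGC, TTTCGCGC or TTTGCCGC, on either strand) was found in 18 of these 39 windows, or 46.2%, against 3.33% of all 27305 windows. Among promoters of genes that passed the filters for correlation, the share was 6.18% in H1 and 6.12% in H9. CCAAT, on either strand, was found in 21 of the 39 windows, or 53.8%, against 35.7% of all windows. Of the ORC genes ORC3 held an E2F-type motif, and ORC2, ORC4, ORC5 and ORC6 held none in this window. Below are the 250 bases before the start, 5′ to 3′ on the gene's strand, with E2F-type motifs in capitals. MCM6 and MCM7 stand for the helicase, PCNA and GINS2 for genes that followed the rest of the list closely in both lines and hold a motif, RRM2 for such a gene without one, and ORC4 for the gene least like the rest. They lie at chr2:135876444-135876693 (minus strand), chr7:100101398-100101647 (minus strand), chr20:5126623-5126872 (minus strand), chr16:85688955-85689204 (minus strand), chr2:10122489-10122738 (plus strand) and chr2:148021552-148021801 (minus strand).
MCM6: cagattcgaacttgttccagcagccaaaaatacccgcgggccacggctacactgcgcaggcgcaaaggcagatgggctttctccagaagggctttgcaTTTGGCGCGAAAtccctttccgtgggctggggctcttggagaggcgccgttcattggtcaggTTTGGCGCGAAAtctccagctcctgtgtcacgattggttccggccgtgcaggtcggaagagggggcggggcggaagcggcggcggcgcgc
MCM7: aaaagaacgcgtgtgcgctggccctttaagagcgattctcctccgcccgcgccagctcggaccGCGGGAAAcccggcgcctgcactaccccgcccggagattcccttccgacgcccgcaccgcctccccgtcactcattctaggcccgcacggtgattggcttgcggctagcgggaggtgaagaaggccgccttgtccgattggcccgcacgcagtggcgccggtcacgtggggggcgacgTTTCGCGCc
PCNA: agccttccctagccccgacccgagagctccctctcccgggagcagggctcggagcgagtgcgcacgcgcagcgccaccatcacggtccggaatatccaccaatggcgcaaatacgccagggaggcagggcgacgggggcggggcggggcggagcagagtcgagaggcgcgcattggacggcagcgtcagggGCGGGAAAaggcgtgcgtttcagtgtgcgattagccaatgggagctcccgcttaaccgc
GINS2: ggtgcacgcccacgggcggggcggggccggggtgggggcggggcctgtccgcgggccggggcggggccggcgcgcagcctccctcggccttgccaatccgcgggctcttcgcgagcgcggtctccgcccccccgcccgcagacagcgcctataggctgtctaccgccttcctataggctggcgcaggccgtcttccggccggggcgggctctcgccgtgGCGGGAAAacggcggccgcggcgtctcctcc
RRM2: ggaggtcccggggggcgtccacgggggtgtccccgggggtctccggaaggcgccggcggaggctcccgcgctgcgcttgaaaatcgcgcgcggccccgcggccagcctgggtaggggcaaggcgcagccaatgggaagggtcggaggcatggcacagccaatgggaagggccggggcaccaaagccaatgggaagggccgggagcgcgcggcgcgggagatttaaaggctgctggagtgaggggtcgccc
ORC4: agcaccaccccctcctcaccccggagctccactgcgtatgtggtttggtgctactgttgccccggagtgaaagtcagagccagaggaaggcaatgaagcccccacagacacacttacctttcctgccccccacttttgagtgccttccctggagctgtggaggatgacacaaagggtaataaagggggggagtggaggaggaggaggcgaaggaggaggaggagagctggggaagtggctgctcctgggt
In MCM6 the capitals are 2 copies of a motif that reads as a match on both strands, so its 4 matches, which begin 152, 148, 90 and 86 bases before the start, overlap in pairs. MCM7 held matches beginning 187 and 9 bases before the start, PCNA 1 at 59 bases and GINS2 1 at 31 bases. A match is a run of letters in a sequence and was not tested as a binding site.

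The labels name no separate culture, chip or sequencing run for the cells of a line, so each line was taken as 1 sample, and neither the lines nor cells and bulk were compared by a test. Line and passage differed together between H1 and H9 and cannot be told apart, nor can any culture or chip that differed with the line. Total counts on human genes per cell ran from 1136295 to 8096756 in H1 and from 1568326 to 7758948 in H9 at 24 libraries per lane, with medians of 852336 and 953327 at 96 per lane. Bulk libraries held 2099639 to 3964675. By limits set after the data had been seen, 5 H1 and 2 H9 cells stood apart, either by over 10% of counts on spike-in RNA or by mitochondrial counts under 1% or over 20%. They are called the unusual cells here. Another 4 H9 cells resembled each other more than other cells did, with a rank correlation above 0.75 to another cell of the same line. All 8 markers of undifferentiated stem cells stood at 10 CPM (counts per 1000000 human counts) or more in H1 cells, H9 cells and bulk. The sum of 7 fibroblast markers was 202 CPM in H1 cells, 215 in H9 cells and 412 in bulk. THY1 made up most of it in the cells and stood at 165 CPM in H1 cells and 169 in bulk, while the collagen genes COL1A1, at 5.67 and 132 CPM, and COL1A2, at 28.7 and 105 CPM, were higher in bulk. LUM was at 0 in all 3 groups, and COL3A1 and DCN were at 0 in H1 cells. Markers of early mesendoderm summed to at most 0.394 CPM and those of early endoderm to at most 2.36 CPM. The early ectoderm list came to 25.0 CPM in H1 cells, 24.5 in H9 cells and 415 in bulk, nearly all from NES, which stem cells also express. Levels in cells here count mitochondrially encoded genes in the total, at a median share of 5.37% in H1 and 7.39% in H9. Bulk levels were the same whether or not those genes were left out. The bulk table held 19084 human genes beside 19097 for cells, so it may hold no row for the 13 mitochondrially encoded genes. The part of these marker differences in the results was not tested.

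Every one of the 45 genes was expressed in both lines, and their levels lay close together between lines. Levels in cells are CPM of the counts summed over a line's cells at 24 libraries per lane, and counting intervals (exact Poisson, 95%) reached at most 2.88% from the level. Those intervals treat each amplified read as its own molecule and ignore differences between cells, so they are too narrow for the level of a line. Of the helicase genes, MCM7 and MCM3 ranked 2 and 3 of the 45 in H1 per length of transcript. MCM3 had a lowest, median and highest H1 cell of 9.86, 569.9 and 1018 CPM, and 99.6, 521 and 1224 in H9. MCM7 gave 70.6, 509 and 1455 CPM over H1 cells and 147, 445 and 1382 over H9 cells. The ranges of the 2 lines overlapped almost fully for both subunits, and MCM7 had reads in every cell. MCM4 had median cells of 359.8 and 336 CPM, MCM6 of 189.9 and 199.5, MCM5 of 159 and 136, and MCM2 of 98.9 and 91.3. At the low end, MCM2 reached 0.163 CPM in an H1 cell and 0.199 in an H9 cell.

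Origin recognition genes differed widely, from 7.497 CPM per kb of transcript for ORC2 to 141 for ORC4 in H1. ORC4 had a lowest, median and highest cell of 398, 845 and 2821 CPM in H1 and 380.2, 799 and 1728 in H9. ORC2 gave 0, 21.6 and 169 CPM in H1 and 0.734, 31.3 and 193 in H9. ORC4 was thus high in every cell, while some cells held next to no ORC2. ORC3, ORC6 and ORC5 had median H1 cells of 196, 110.4 and 80.8 CPM. Among the loading and activation factors, CDC6 had median cells of 224 CPM in H1 and 202 in H9, against 15.2 and 11.1 for CDT1 and 82.5 and 58.9 for MCM10. In the GINS complex, GINS2 stood at 126 and 109 CPM in the median cell, GINS1 at 90.8 and 95.4, GINS4 at 61.05 and 46.03, and GINS3 at 3.05 and 2.60.

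Catalytic subunits of polymerases delta and epsilon were among the scarcest transcripts per length, and cells without a read occurred in both lines. POLD1, of polymerase delta, had a lowest, median and highest cell of 0, 3.76 and 177 CPM in H1 and 0, 5.19 and 112 in H9. POLE, of polymerase epsilon, had 0, 17.1 and 164 CPM in H1 and 0, 5.54 and 217 in H9. POLE2, an accessory subunit of epsilon, had median cells of 11.8 and 12.4 CPM and POLD3, of delta, 42.4 and 58.8. The primase subunits PRIM1 and PRIM2 had median H1 cells of 77.2 and 40.7 CPM. PCNA, the sliding clamp, had 6.18, 283.2 and 593 CPM in H1 and 59.6, 277.7 and 574 in H9, with reads in every cell. Its loader genes RFC1 to RFC5 had median H1 cells between 69.7 CPM for RFC5 and 169.7 for RFC1. The single-strand binding subunits RPA1, RPA2 and RPA3 had median H1 cells of 162, 141 and 52.9 CPM. FEN1, which trims the flaps of Okazaki fragments, stood at 126 CPM in the median H1 cell and LIG1, which seals the nicks, at 24.8.

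For nucleotide supply, RRM2 and RRM1, the subunits of ribonucleotide reductase, had median H1 cells of 332 and 229.7 CPM. TK1, thymidine kinase, had 94.1 and TYMS, thymidylate synthase, 17.0. CHAF1A and CHAF1B, which place histones on new DNA, had 46.2 and 13.3 CPM. UNG, which removes uracil from DNA, had 124 and SLBP, which binds the stem-loop of histone messages, 18.6. Levels between genes are comparable only per length of transcript. Per kilobase of the principal transcript (GENCODE release 29), PCNA was highest in H1 at 205 CPM per kb, followed by MCM7 at 182, MCM3 at 175, ORC4 at 141 and RRM2 at 96.7. The lowest were POLE at 3.46 CPM per kb, CHAF1B at 4.46, POLD1 at 4.51 and CDT1 at 5.16. The order in H9 was close to that in H1, with a rank correlation of 0.98 over the 45 genes, and between H1 cells and bulk it was 0.68.

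**Figure D1:**
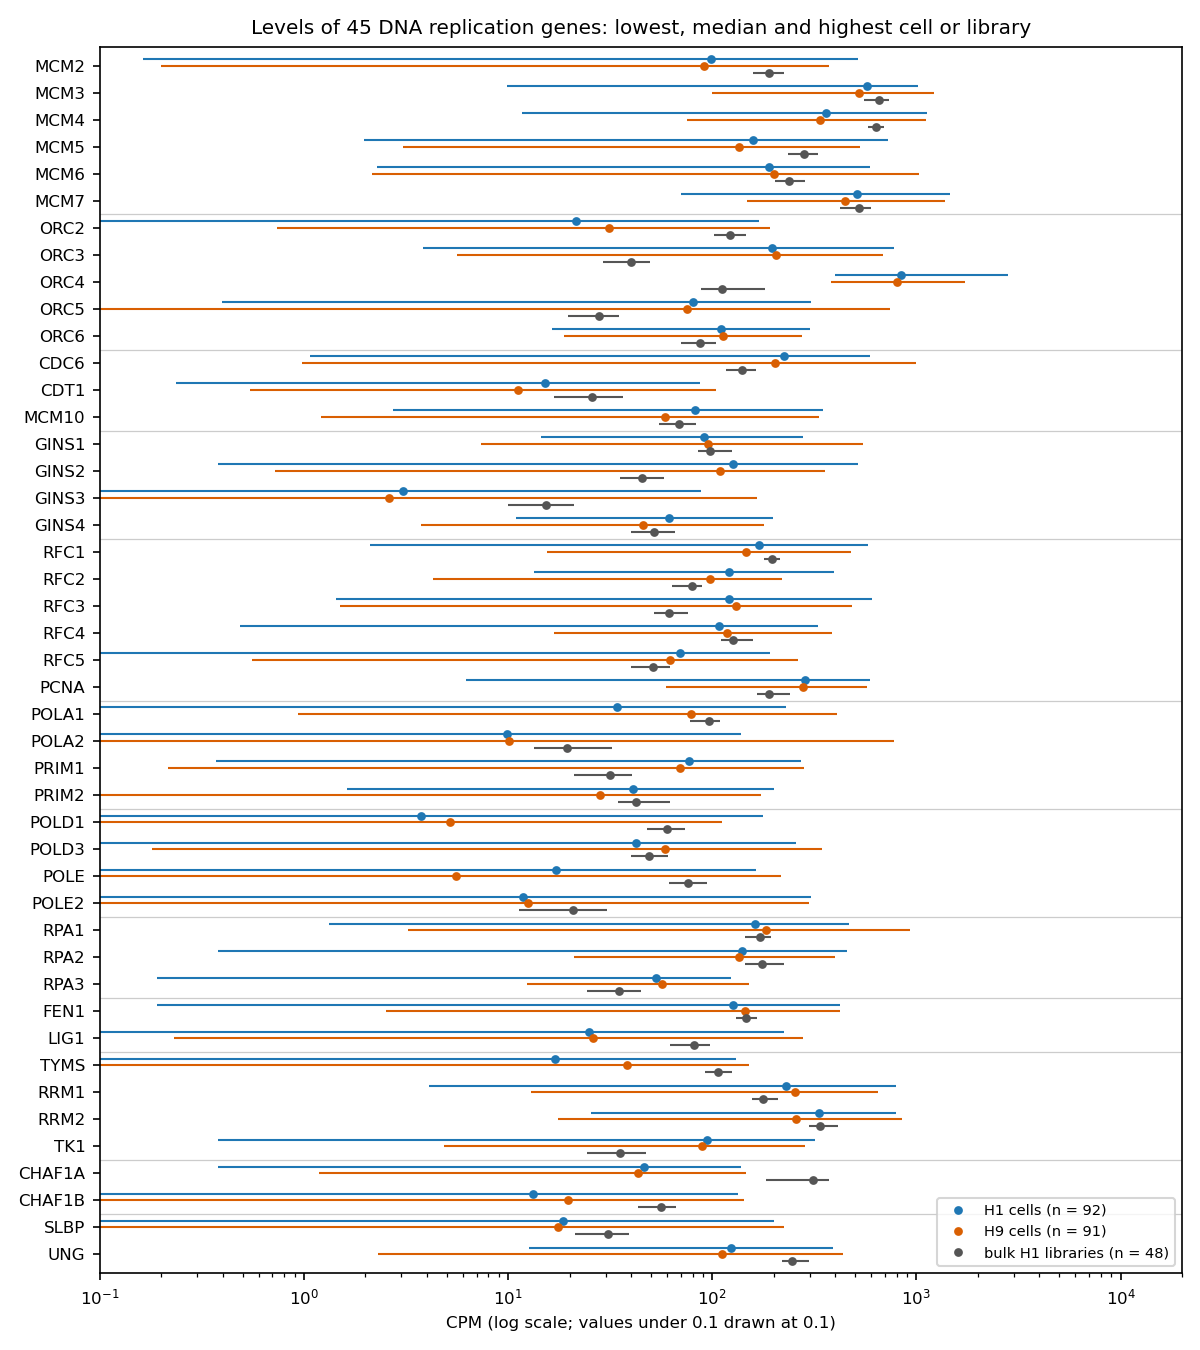
Level of each of the 45 genes in CPM on a log axis, in 92 H1 cells, 91 H9 cells and 48 bulk H1 libraries. Points are medians and lines run from the lowest to the highest cell or library, with values under 0.1 CPM drawn at 0.1. Levels in cells count mitochondrially encoded genes in the total. ORC4 in cells lies wholly to the right of its bulk libraries and CHAF1A wholly to the left.

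For 12 genes at least 95% of the values above 0 were fractional in both lines, which marks reads that the authors' program divided between this gene and other sequences. These were MCM4, ORC4, ORC6, CDC6, CDT1, MCM10, GINS1, GINS4, RFC2, PRIM2, TYMS and RRM2, and their levels are uncertain by the way such reads were shared. In the other 33 genes the share of fractional values ran from 6.33% to 83.9%. In bulk, 32 of the 45 genes had no fractional value and 11 of the 12 had them in at least 50% of libraries, TYMS being the exception.

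Detection of the 45 genes was close to complete. No share of other genes of like level was taken beside it, so it is not read as a trait of these genes. At 24 libraries per lane, 32 of the 45 genes had a read in all 92 H1 cells and 35 in all 91 H9 cells, and the median share was 100% in each line. At 96 per lane these numbers were 26 and 27. POLD1 was read in the fewest H1 cells, 84 of 92, or 91.3% (exact binomial 95% interval 83.6% to 96.2%) at the greater depth and 71.7% at the lesser one. In H9, POLD1 and POLE were each read in 86.8% of cells (78.1% to 92.997%) at 24 per lane. POLE was read in 98.9% of H1 cells. Of the 4140 gene and cell combinations in H1, 106 had a read at 24 per lane only, 9 at 96 per lane only and 36 at neither. In H9, of 4095, the numbers were 90, 15 and 42. With the same cell compared at both depths, the rank correlation per gene over cells had a median of 0.975 in H1, lowest for CDT1 at 0.850, and of 0.982 in H9, lowest for GINS3 at 0.886. The median within-cell log2 ratio of CPM between depths was -0.004 in H1 and -0.016 in H9, so the deeper lanes read more cells for the scarce polymerase genes while the median level barely moved. Both depths share the same cDNA, so this is a repeat of sequencing and not of cells.

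Between the lines, the replication genes differed little, with a single gene past 2-fold. POLA1, the catalytic subunit of polymerase alpha, stood at 50.1 CPM in summed H1 cells and 105 CPM in H9, for which log2 of H1 over H9 was -1.06. Its lowest, median and highest cells were 0, 34.3 and 229 CPM in H1 and 0.929, 78.5 and 407 in H9, so the cells of the lines overlapped. At 96 per lane its log2 ratio was -1.08, without the 4 alike H9 cells -1.11, and without the unusual cells -1.07. Bulk H1 libraries, of another passage and chemistry, gave 96.6 ± 7.07 CPM (SD, n = 48), beside 53.4 in H1 cells with mitochondrially encoded genes left out. POLA1 is the only gene of the list on chromosome X, where 319 genes at 10 CPM or more had a median log2 ratio of -0.23. The part of that shift in the POLA1 difference was not tested.

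One gene of 45, or 2.22%, was thus at least 2-fold higher in H9, against 2.23% of the 8851 genes that reached 10 CPM in at least one line. None was 2-fold higher in H1, against 1.83% of all genes. A share this near the background is no result about replication genes. Within 1.5-fold lay 41 of the 45 genes, or 91.1%, against 85.5% of all genes. Their median log2 ratio was -0.07 against 0.02 over all genes, with 17 genes higher in H1 and 28 in H9. Weighting each cell equally brought that median to -0.01, and leaving out the unusual cells brought it to -0.02. Under the alternatives 11 of the 45 genes changed sign. No share of all genes higher in each line is given, so the counts of 17 and 28 are no result about the list.

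The next largest ratios toward H9 were those of TYMS, POLA2, CHAF1B and ORC2. TYMS had 27.7 CPM in H1 and 45.6 in H9 (log2 ratio -0.72), and its cells ran over 0, 17.0 and 130.4 CPM in H1 and 0, 38.2 and 151 in H9 (lowest, median, highest). POLA2, the partner of POLA1, had 24.1 and 39.6 CPM (log2 ratio -0.71), with 0, 9.82 and 138 CPM over H1 cells and 0, 10.1 and 773 over H9 cells. A single H9 cell carried much of that gap, since the log2 ratio without each line's highest cell was -0.32. CHAF1B gave -0.65 and ORC2 -0.46. Toward H1, the largest were RFC2 at 0.41 (126 against 94.9 CPM), GINS4 at 0.36, MCM5 at 0.30, POLE at 0.29 and ORC4 at 0.18. TYMS, RFC2, GINS4 and ORC4 are among the 12 genes with shared reads. The part of shared reads in their ratios was not tested. Within complexes the subunits did not share a direction. The helicase held MCM5 at 0.30 and MCM6 at -0.30, and the polymerase alpha-primase complex held POLA1 at -1.06 and PRIM1 at 0.07.

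Single cells and bulk differed far more than the lines did, and differently for subunits of one complex. Here the summed H1 cells were set against the mean over bulk libraries, with mitochondrially encoded genes left out. Leaving them out changed the totals of cells only, as bulk levels stayed the same. Chemistry, passage and the number of libraries per lane differ together with cells against bulk and cannot be told apart. A bulk level also cannot tell the share of cells in S phase from the amount of RNA per cell, and neither was tested here. ORC4 stood at 1007 CPM in H1 cells, where single cells ran from 402 to 4161 around a median of 917, and at 113 ± 13.6 CPM in bulk (SD, n = 48, range 87.9 to 181). Every one of the 92 cells lay above every bulk library (log2 ratio 3.15). CHAF1A showed the reverse, at 54.1 CPM in cells, from 0.560 to 149 around 48.7, and 310.2 ± 32.9 CPM in bulk (range 183 to 373), with every cell below every library (log2 ratio -2.52). These were the only genes of the 45 without overlap, 1 each way, or 2.22%, against 2.11% of all 9647 genes with every cell higher and 3.48% with every library higher. ORC4 is among the 12 genes with shared reads, and 100% of its values were fractional in H1 cells and in bulk. The part of shared reads in the ORC4 difference was not tested.

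Past 2-fold, 7 of the 45 genes, or 15.6%, were higher in cells, against 30.1% of all 9647 genes, and 7 were higher in bulk, against 21.5%. Origin recognition genes led the first set, with ORC3 at 232 CPM in cells and 39.98 ± 4.74 in bulk (log2 ratio 2.53) and ORC5 at 94.9 and 27.7 ± 3.19 (1.78). GINS2 (1.61), PRIM1 (1.59), TK1 (1.55) and RFC3 (1.27) followed. ORC2, of the same complex, was instead higher in bulk, at 34.4 CPM in cells and 123 ± 8.89 in bulk (-1.83), and ORC6 stood near even at 0.40. Higher in bulk were also the catalytic polymerase subunits POLD1, at 16.5 CPM in cells and 60.9 ± 6.13 in bulk (-1.88), and POLE (-1.39), together with TYMS (-1.85), CHAF1B (-1.40) and LIG1 (-1.05), which stood short of 2-fold at 96 libraries per lane (-0.96). The other polymerase subunits POLD3 and POLE2 ran the other way, at 0.30 and 0.79. TYMS is among the 12 genes with shared reads in cells, and the part of such reads in its ratio to bulk was not tested.

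The helicase genes lay within 2-fold of bulk, from -0.77 for MCM2 to 0.14 for MCM7. Within 1.5-fold were 22 of the 45 genes, or 48.9%, against 29.5% of all genes. The median log2 ratio was 0.13 for the 45 genes and 0.24 for all genes, and with TMM factors -0.03 and 0.07, so its sign turned with the scaling. Under TMM, POLA1 (-1.02) and UNG (-1.05) passed 2-fold toward bulk, as they did with median-of-ratios factors. Over the 45 genes the log2 ratio had a rank correlation of -0.48 with the GC content of the transcript and -0.38 with its length, against -0.30 with GC over 8983 of all genes. Transcripts of ORC4, ORC3 and ORC5 were 37.7%, 39.3% and 41.8% GC, those of POLD1, LIG1 and CHAF1A 64.8%, 60.7% and 57.6%, and that of ORC2 40.1%. The part of GC content in the differences was not tested.

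**Figure D2:**
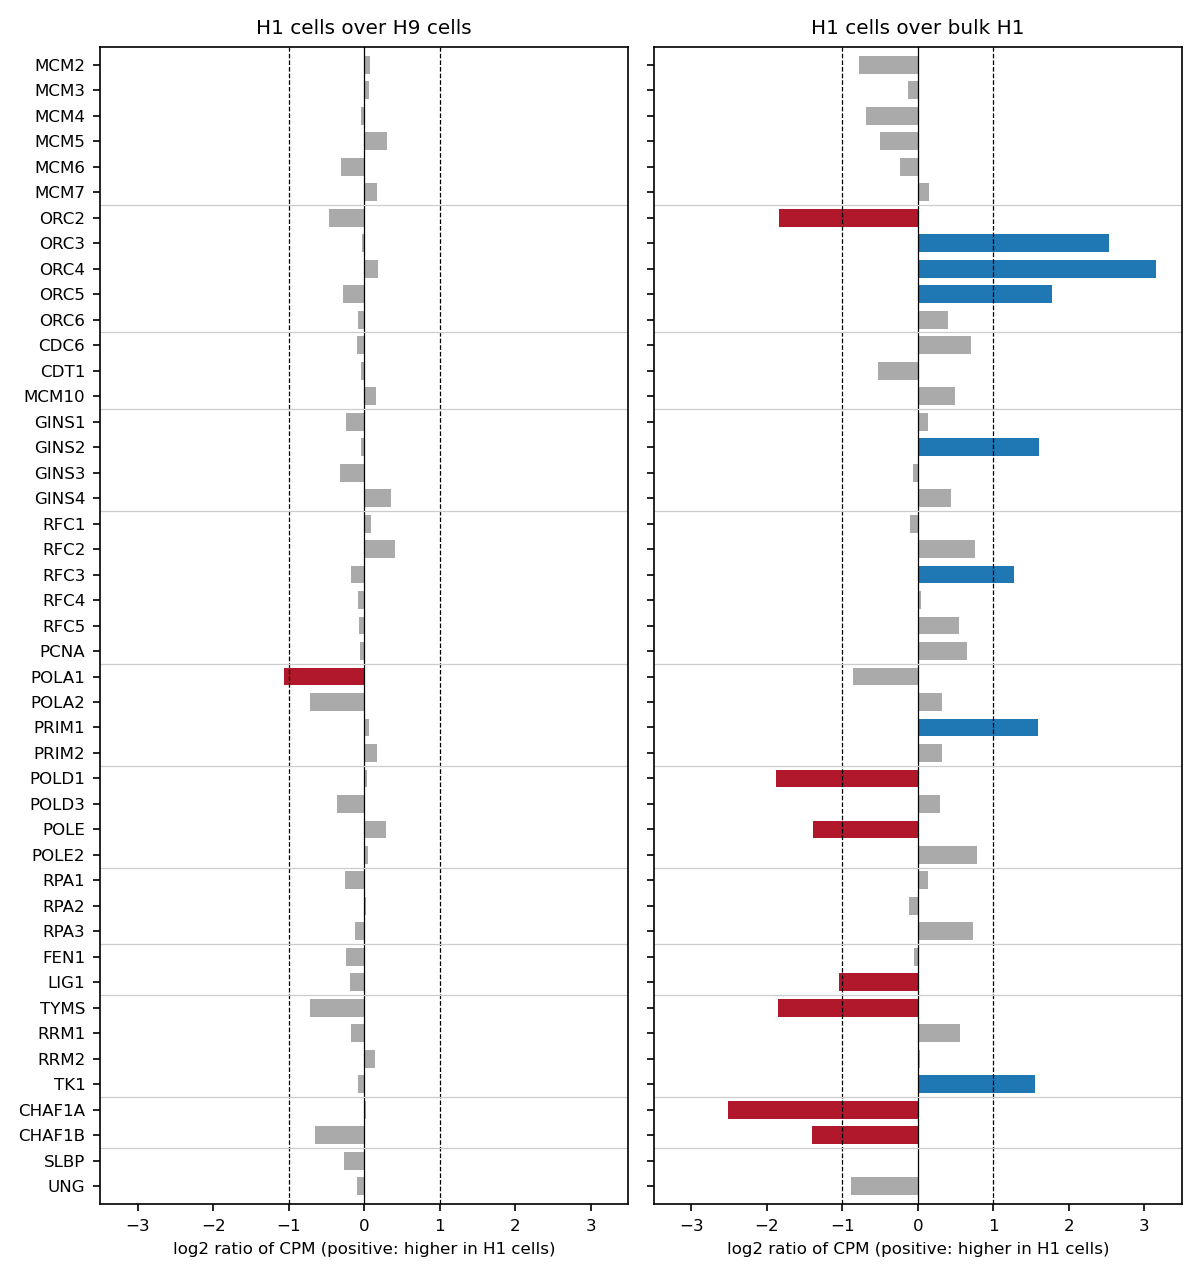
Log2 ratio of CPM per gene, H1 cells over H9 cells on the left and H1 cells over bulk H1 on the right, with dashed lines at 2-fold. Bars past the lines are coloured. On the left only POLA1 crosses, while on the right 7 genes cross each way, with ORC2 opposite to ORC3, ORC4 and ORC5.

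From cell to cell, replication genes varied about as much as other genes of their level. The squared coefficient of variation (CV) of CPM over cells was divided by the median over 100 genes of closest mean level, and the log2 of that ratio is the relative spread. Its median over the 45 genes was 0.05 in H1 and 0.17 in H9, and near 0 over all genes by construction. None of the 45 genes in H1 had at least 2 times the spread of genes of like level, against 9.5% of 8412 genes, and 2 in H9 (4.44%), against 5.77% of 8481. Those were POLA2 at 2.31 and CDC6 at 1.16. Without its highest cell, POLA2 stood at 1.17 and CDC6 at 0.92. At the other end, 3 genes in H1 (6.67%) had a spread at least 2 times smaller, against 16.8% of all genes, and 4 in H9 (8.89%), against 13.5%.

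RPA3, the small subunit of RPA, had the lowest relative spread in both lines, at -2.26 in H1 and -2.14 in H9. Its lowest, median and highest cells were 0.190, 52.9 and 124 CPM in H1 and 12.4, 56.8 and 151 in H9. Its CVs of 0.408 and 0.440 were not the lowest, since ORC4, at a higher level, had 0.361 and 0.309. In relative spread CDT1 followed at -1.45 and -1.16, then ORC6 at -1.26 and -0.95, CHAF1A at -0.97 and -1.03, GINS4 at -0.86 and -0.77, and RFC2 at -0.52 and -1.01. Of these, CDT1, ORC6, GINS4 and RFC2 are among the 12 genes with shared reads, and the part of shared reads in their spread was not tested. The widest in H1 were POLD1 at 0.84, POLE2 at 0.78, RRM1 at 0.77, RFC3 at 0.75 and ORC3 at 0.71. In H9, ORC5 at 0.87, MCM6 at 0.79 and POLE at 0.78 came after POLA2 and CDC6. The helicase subunits lay above 0 in both lines except MCM3, which had -0.23 in H1 and 0.46 in H9. Over the 45 genes the relative spread of the 2 lines had a rank correlation of 0.60. As a scale, the G2/M list had medians of 0.70 in H1 and 0.56 in H9 over 31 genes.

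Bulk libraries differed little. The CV over 48 libraries ran from 3.71% for MCM4 to 21.98% for POLA2, with a median of 8.99%, where counting alone would give a median of 6.16%. The labels do not say that these libraries are separate cultures, so that spread may be technical.

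**Figure D3:**
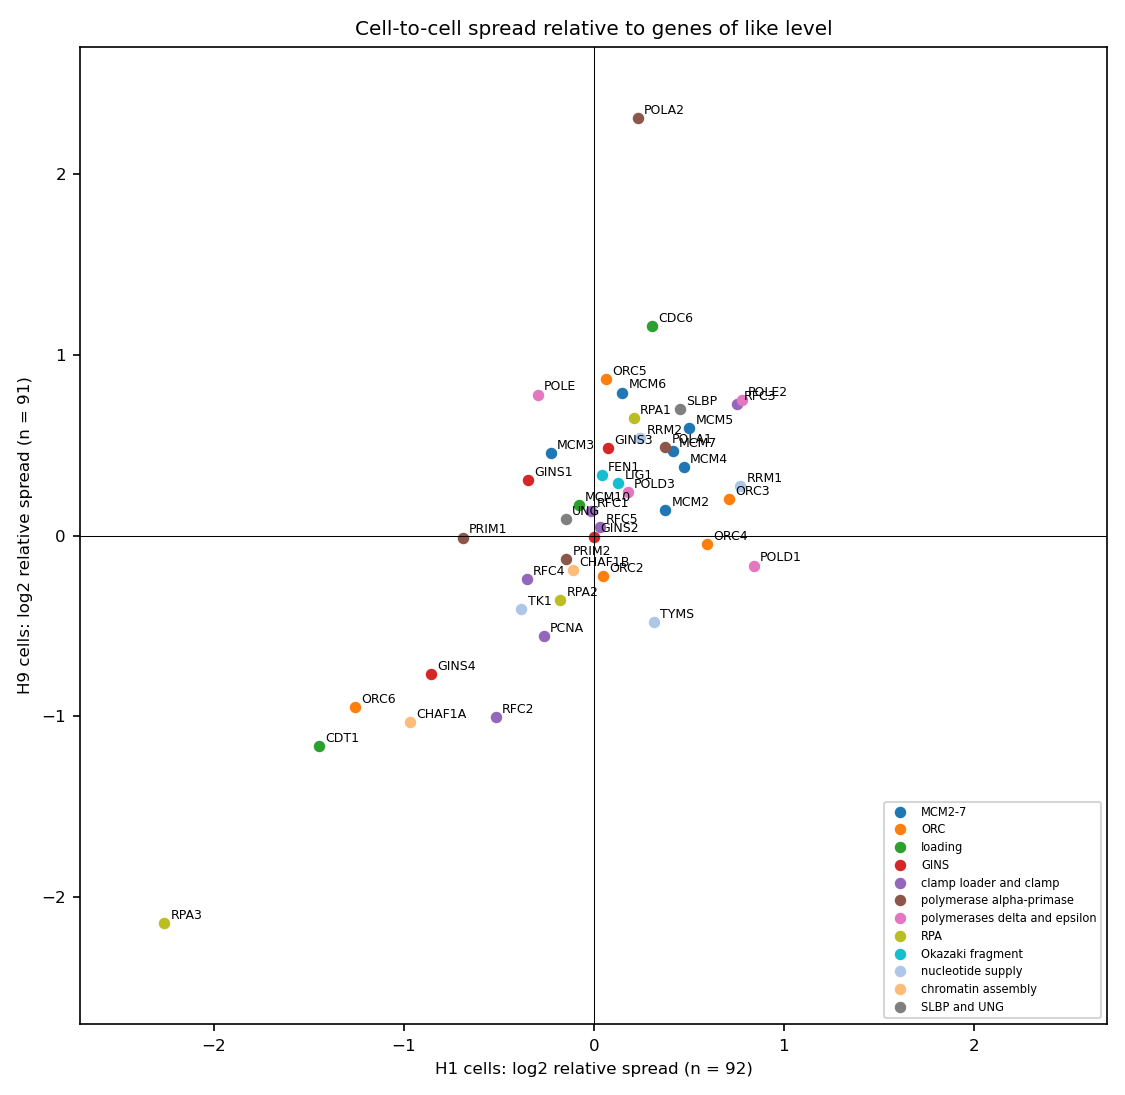
Log2 relative spread of each gene over 92 H1 cells (horizontal) and 91 H9 cells (vertical), where 0 is the median of genes of like level. RPA3 lies lowest on both axes, and POLA2 stands alone at the top of the H9 axis.

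Cells high in one replication gene were, on the whole, only weakly high in others. Spearman correlations were taken over the 92 H1 and 91 H9 cells, which the labels tie to no separate cultures, and are given as descriptions. Of the 990 pairs among the 45 genes, 704 (71.1%) had a correlation above 0 in H1, against 59.9% of pairs of all genes, and 652 (65.9%) in H9, against 54.8%. Their median was 0.07 in H1 and 0.04 in H9, against 0.03 and 0.01 over all gene pairs. At 0.3 or more stood 32 pairs in H1 (3.23%), against 1.36% of all gene pairs, and 21 in H9 (2.12%), against 1.01%. Leaving out the unusual cells left 21 such pairs in H1, and leaving out the 10% of cells with the fewest genes left 18 in H1 and 34 in H9. Pearson correlation of log2(CPM + 1) gave 159 in H1 and 33 in H9. No share of all gene pairs is given under these alternatives, so their counts are not read as a trait of the list.

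By their median, pairs from one complex or task group moved together about as weakly as pairs in general. Nucleotide supply, CDC6 with CDT1 and MCM10, FEN1 with LIG1, RFC with PCNA, and polymerases delta with epsilon are task groups, not single complexes. The 72 pairs within complexes and task groups had a median of 0.04 in H1 and 0.07 in H9, near that of all 990 pairs. At 0.3 or more stood 6 of the 72 in H1, 5 of them in the helicase, and 2 in H9, 1 in the helicase. Over all 990 pairs these counts were 32 (3.23%) and 21 (2.12%), against 1.36% and 1.01% of all gene pairs. Medians above those of all pairs in both lines were found for the helicase, GINS and nucleotide supply. All 15 pairs among MCM2 to MCM7 were above 0 in H1 and 14 in H9, with medians of 0.23 and 0.16. MCM4 and MCM5 had a correlation of 0.32 in H1 and 0.30 in H9, MCM2 and MCM7 0.32 and 0.26, MCM4 and MCM7 0.32 and 0.24, and MCM3 and MCM6 0.26 and 0.28. MCM2 and MCM6 parted most, with 0.35 in H1 and -0.01 in H9. Other pairs also differed, with 0.33 and 0.11 for MCM2 and MCM5, and 0.13 and 0.26 for MCM6 and MCM7. The 15 pairs ran from 0.005 to 0.35 in H1 and from -0.009 to 0.30 in H9. The helicase median held at 0.22 in H1 and 0.17 in H9 without the unusual cells, and at 0.15 in H9 without the 4 alike cells.

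For CDC6, CDT1 and MCM10 all 3 pairs were above 0 in H9, with a median of 0.19, above that of the helicase, and 2 of 3 in H1, with a median of 0.02. All 6 pairs of nucleotide supply genes were above 0 in H1 and 5 in H9, with medians of 0.08 and 0.13. RRM1 and RRM2, of 1 enzyme, had 0.06 in H1 and -0.001 in H9. Of the 10 pairs of origin recognition genes none was above 0 in H1 and 6 were in H9, with medians of -0.06 and 0.02, from -0.15 to -0.01 in H1 and from -0.15 to 0.23 in H9. Medians for GINS were 0.13 in H1 and 0.06 in H9 and for RFC with PCNA -0.02 and 0.05. Polymerase alpha-primase gave 0.04 and 0.03, polymerases delta and epsilon 0.04 and 0.06, and RPA -0.03 and 0.003. FEN1 with LIG1 had 0.18 in H1 and -0.03 in H9, and CHAF1A with CHAF1B 0.04 in both.

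The pairs at 0.3 or more in both lines numbered 5, or 0.505% of the 990, against 0.357% of pairs over the 7954 genes correlated in both lines. They made up 15.6% of the pairs at that level in H1 and 23.8% of those in H9, against 28.4% and 33.95% over all genes. Of the 5, 4 joined genes of different complexes or task groups, as do 92.7% of the 990 pairs. MCM4 and GINS2 had 0.40 in H1 and 0.39 in H9, MCM6 and PCNA 0.42 and 0.34, CDC6 and PCNA 0.32 and 0.35, ORC3 and RRM1 0.40 and 0.32, and RRM2 and TK1, both of nucleotide supply, 0.34 and 0.31. Other pairs reached 0.3 in one line only. RRM2 and UNG had 0.48 in H1 and 0.23 in H9, MCM5 and FEN1 0.43 and 0.17, ORC2 and CDT1 0.40 and -0.08, and GINS2 and TYMS 0.11 and 0.42. Over the 990 pairs the values of the lines had a rank correlation of 0.20.

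**Figure D4:**
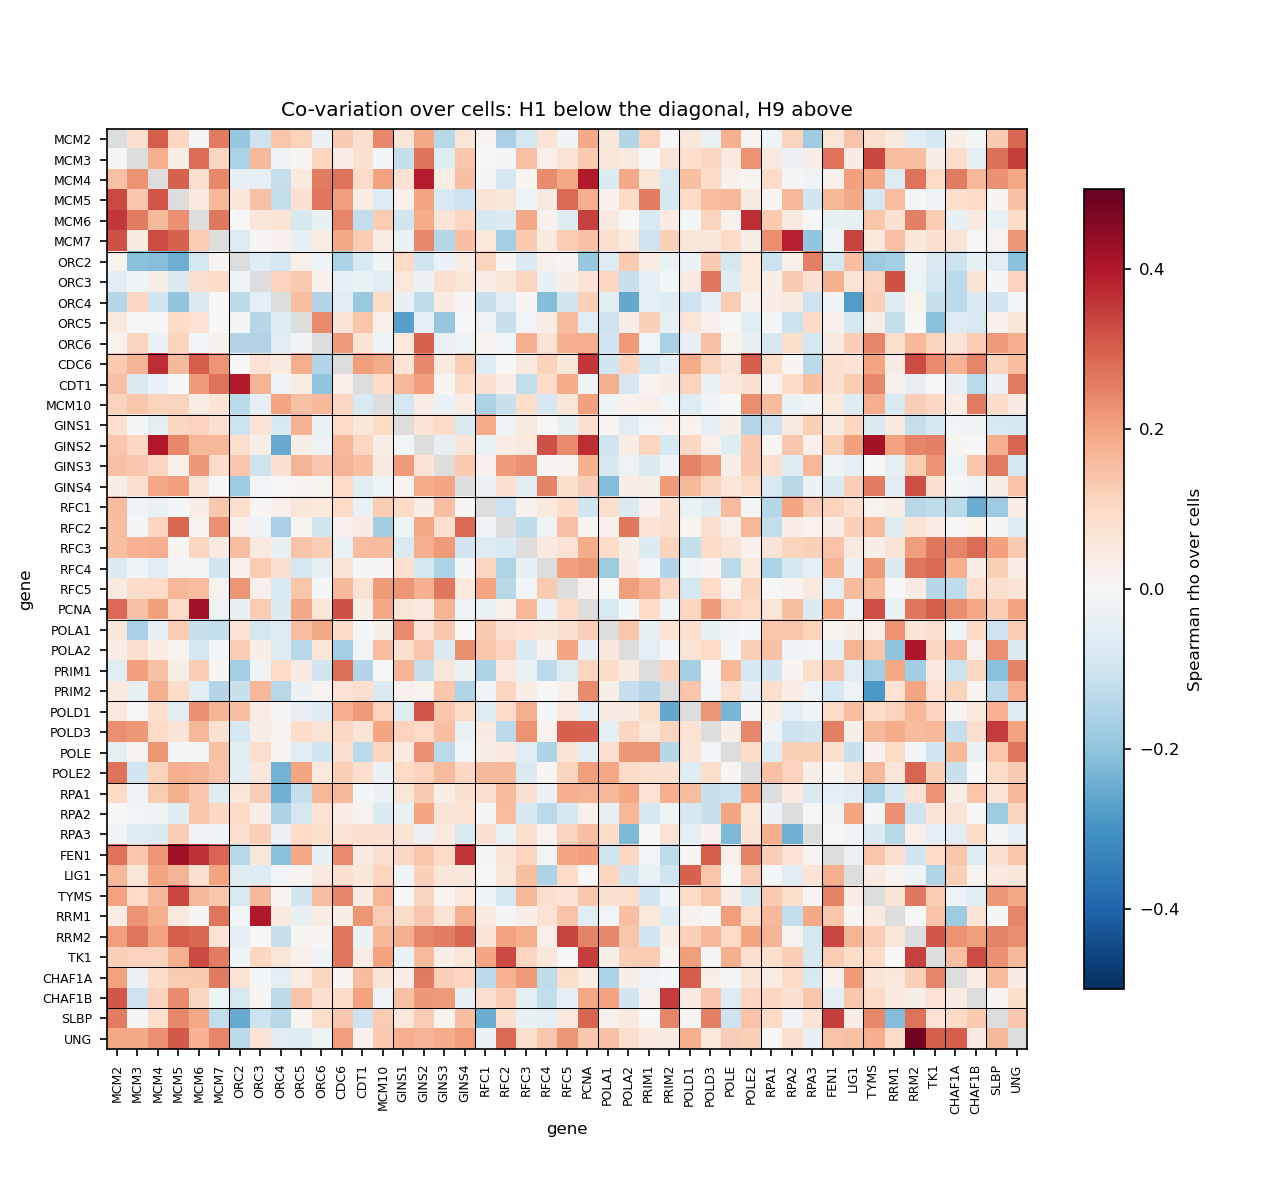
Spearman correlation over cells for each pair of the 45 genes, ordered by complex or task group, with 92 H1 cells below the diagonal and 91 H9 cells above it. The MCM2 to MCM7 block at the top left is red on both sides of the diagonal, while the ORC block beside it is pale or blue below the diagonal.

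Some genes followed the rest of the list more than others, and in much the same order in both lines. Each gene was correlated with the mean rank of the other 44 over cells. RRM2 had 0.51 in H1 and 0.42 in H9, UNG 0.45 and 0.43, PCNA 0.39 and 0.48, GINS2 0.39 and 0.45, MCM4 0.38 and 0.44, and CDC6 0.42 and 0.39. ORC4 ran against the rest, at -0.17 and -0.14, as did ORC2 at -0.07 and -0.11. Above 0 stood 42 of the 45 genes in H1 (93.3%), against 76.7% of 8345 genes outside the list set against the mean rank of the 45, and 40 in H9 (88.9%), against 59.2% of 8330. In both lines 39 were above 0 (86.7%), against 48.4% of 7909. The genes outside the list had medians of 0.10 in H1 and 0.03 in H9, and the rank correlation of the 45 values between lines was 0.68. That mean rank had a correlation with the total count of a cell of -0.33 in H1 and 0.02 in H9, and with the number of genes read of 0.19 and 0.14. The part of total count in the H1 correlations was not tested beyond the removal of its trend, which left a helicase median of 0.22.

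The promoter letters shown above separated these genes little. Genes with an E2F-type motif in the window had a median correlation with the rest of the list of 0.257 in H1 and 0.213 in H9, and genes without one 0.233 and 0.151. The ranges overlapped, from 0.0802 to 0.421 with a motif and -0.175 to 0.508 without one in H1, and RRM2 and UNG, near the top of that order, held none in this window.

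Against genes of G2 and mitosis, many replication genes ran the opposite way. The reference here was the mean rank of 31 G2/M genes such as TOP2A, PLK1 and AURKA. Below 0 stood 32 of the 45 genes in H1 (71.1%), against 42.5% of 8359 genes, and 29 in H9 (64.4%), against 40.5% of 8344, with 23 below 0 in both. The medians were -0.07 in H1 and -0.03 in H9, against 0.02 and 0.03 over all genes. At -0.2 or lower in both lines were 7 genes: RRM2 (-0.39 in H1 and -0.23 in H9), MCM4 (-0.28 and -0.25), FEN1 (-0.28 and -0.28), MCM5 (-0.27 and -0.27), TK1 (-0.26 and -0.26), MCM6 (-0.23 and -0.25) and GINS2 (-0.22 and -0.33). PCNA (-0.20 and -0.36) and CDC6 (-0.17 and -0.35) came next. Above 0 in both lines were 7 others, ORC2 (0.30 and 0.14), RPA3 (0.23 and 0.18), PRIM2 (0.06 and 0.24), RFC5, RFC1, ORC3 and CDT1. No share of all genes was taken for both lines together, so the counts over both lines are not read as a trait of the list. By complex or task group, the helicase had medians of -0.27 and -0.19, nucleotide supply -0.22 and -0.17, and ORC 0.06 and -0.02. Pearson correlation of log2(CPM + 1) turned the H1 median to 0.04 and left that of H9 at -0.00011, so the direction of the median rests on the use of ranks.

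**Figure D5:**
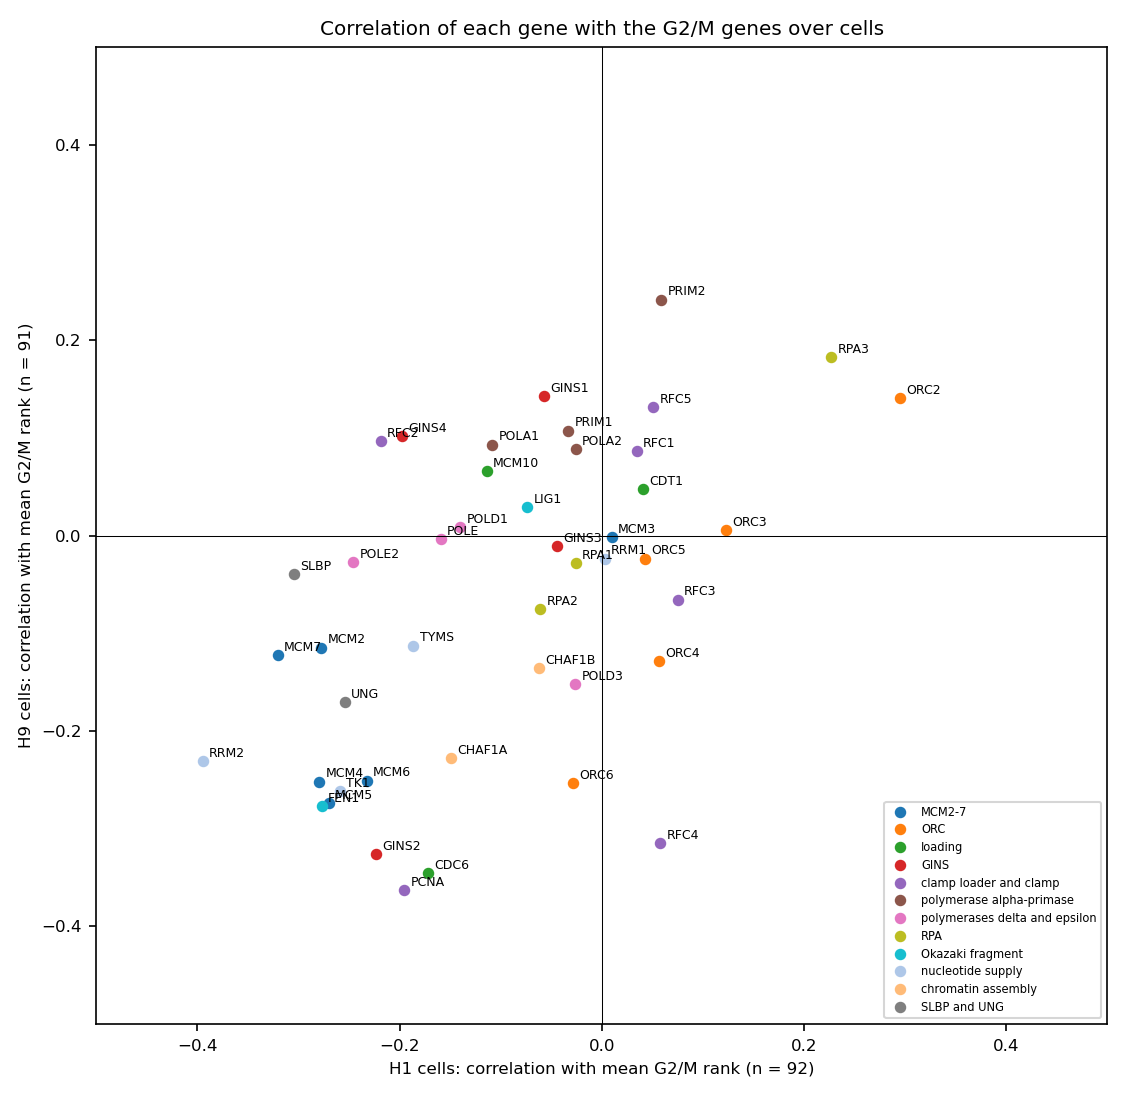
Spearman correlation of each of the 45 genes with the mean rank of 31 G2/M genes, over 92 H1 cells (horizontal) and 91 H9 cells (vertical), coloured by complex or task group. Helicase genes other than MCM3, RRM2, TK1, FEN1, GINS2 and PCNA lie at the lower left, and ORC2 and RPA3 at the upper right.

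Genes outside the list that followed the mean rank of the 45 most closely, by the lower of both lines' correlations among 7909 genes, were led by DTL, which helps destroy CDT1 in S phase, at 0.46 in H1 and 0.60 in H9. EXO1, a DNA exonuclease, had 0.41 in both. NPM1 (0.42 and 0.36), the histone variant gene H2AFZ (0.47 and 0.34), the cyclin E gene CCNE2 (0.34 and 0.43), HNRNPR (0.38 and 0.33), PAICS of purine synthesis (0.38 and 0.33), the glycolysis gene GAPDH (0.33 and 0.35), NOLC1 (0.32 and 0.34) and TAF15 (0.37 and 0.32) completed the 10.

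A further list of 37 replication genes gave 0 genes at 2-fold between the lines, against 1.83% of all genes higher in H1 and 2.23% in H9. Their correlations to the 45 genes were above 0 for 33 of 37 in H1 (89.2%) and 34 in H9 (91.9%), against 76.7% and 59.2% of genes outside the 45, with medians of 0.18 and 0.17. CDC45, a partner of the helicase, had 0.22 and 0.46, and CHTF18, of an alternative clamp loader, -0.09 and -0.18. Against bulk, 12 of the 37 (32.4%) were at least 2-fold higher in cells, near the 30.1% of all genes, so the count is no result about this list. The highest were POLD4 (12.9 CPM in cells and 2.43 in bulk, log2 ratio 2.41), POLD2 (1.90) and the CDT1 inhibitor GMNN (1.74). POLD4, like ASF1B (20.4 and 7.66 CPM), passed the minimum level through cells alone. Another 6 (16.2%) were higher in bulk, against 21.5% of all genes, with the histone chaperone NASP at -2.72, the mismatch repair gene MSH6 at -1.52 and DUT, which clears dUTP, at -1.16. Of 15 regulators of the G1/S step, 0 were 2-fold apart between lines. Against bulk 5 (33.3%) were higher in cells and 6 (40%) in bulk, beside the same 30.1% and 21.5% of all genes, with CCNE2 at 2.88 and CCND1, cyclin D1, at -2.22. CCNE2 (65.6 CPM in cells and 8.92 in bulk) and E2F2 (24.4 and 5.60) passed the minimum level through cells alone. Their correlations to the 45 genes were above 0 for 14 of 15 in H1 (93.3%) and 13 of 14 in H9 (92.9%), against 76.7% and 59.2%, with CDK2 at 0.26 and 0.36 and RBL1 at -0.13 and 0.04. The G2/M genes had a median correlation to the 45 genes of -0.12 in H1 and -0.09 in H9. Of 31, 4 stood above 0 in H1 (12.9%) and 8 in H9 (25.8%), against 76.7% and 59.2% of genes outside the 45. TOP2A had -0.51 and -0.36, while MKI67 had -0.37 and 0.09 and CDCA8 0.02 and -0.17. Of 12 histone genes tied to replication, 3 passed the minimum level, HIST1H4C, HIST1H1B and HIST1H2BD, at 0.36, 0.27 and 0.40 in H1 and 0.11, 0.10 and 0.19 in H9. Those 3 passed through their level in cells alone. HIST1H4C stood at 428 CPM in H1 cells and 0.0509 in bulk, where it had 8 counts over all libraries (log2 ratio 13.04). HIST1H1B had 15.1 and 0.136 CPM (6.80) and HIST1H2BD 11.4 and 2.33 (2.29). Over all 12 histone genes bulk levels ran from 0.0432 to 4.49 CPM, and 11 were higher in cells, HIST2H2BE being the exception. Most of the 12 stood below the minimum level, and HIST1H1D and HIST1H1E held only 6 and 7 counts over all bulk libraries. No share of all genes higher in cells was taken beside the count of 11. As background, most messages of this histone class lack a poly-A tail.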

How the data were processed

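The authors deposited 1 table per group of libraries with RSEM expected counts per gene. Per the submitters' processing notes, CASAVA 1.8.2, Bowtie 0.12.8, RSEM 1.2.3 and hg19 were used, with reads of 51 bp. The annotation is not given in the sources used here. All 414 columns matched a sample title, with 0 left unused.

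Levels are counts per 1000000 human counts (CPM). The 92 spike-in rows were left out of totals, and the 13 mitochondrially encoded genes also in the comparison with bulk. Counts of each line's cells at 24 per lane were added up, and ratios were read by size, at 2-fold and a minimum of 10 CPM in either group. A read means a rounded count of at least 1. Correlations used genes at 10 CPM or more with reads in at least 50% of cells, which all 45 genes passed. Libraries of the 2 depths were paired by the cell number in their titles, which names the same cDNA.

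The 45 genes, the other lists and the tests were chosen with earlier results of these data known. All 45 may be named, with full values for the 5 highest and 5 lowest by each ratio and by relative spread. Other genes are the 10 most like the 45 and up to 3 highest and 3 lowest of each further list. Promoters and chromosomes came from RefSeq (GRCh38.p14) and transcript lengths from GENCODE 29, not the build used for mapping. A planned search for a protein motif was not run. The methods were first tested on simulated data. Software was pandas 2.3.3, numpy 2.4.6, scipy 1.17.1 and matplotlib 3.10.9 under Python 3.11.15.

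Alternatives were the other depth, TMM and median-of-ratios scaling, equal weight per cell, a minimum of 1 CPM, mitochondrially encoded genes left out, each gene without its highest cell, cells with the fewest genes left out, detection at 5 counts, a thinned deeper library, a detection share of 80%, Pearson correlation, removed trends on depth, and unpaired depths. Leaving out cells that stood apart, and the highest cell between lines, was added after seeing the data.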

Additional observations from a re-analysis of the deposited data

How the results depend on the processing

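Each line of cells is 1 sample, which is the main limit, and counting intervals do not cover differences between cultures. The count of genes 2-fold apart between lines stayed at 1 under all alternatives run, and the count against bulk stayed within 1.5 times. Of the 45 genes, none crossed 2-fold between lines in 360 recomputed ratios. Against bulk, in 225, LIG1 fell short of 2-fold at 96 per lane, which left 6 genes higher in bulk, and POLA1 and UNG passed it with TMM and with median-of-ratios factors, which made 9. Signs changed in 19 and 16 of these ratios, all of genes within 0.0989 and 0.142 of 0 on the log2 scale. No replicates exist to leave out among the cells.

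The median log2 ratio between lines (-0.07) was -0.078 with TMM factors, -0.076 with median-of-ratios factors, -0.0090 with equal weight per cell, -0.096 without mitochondrially encoded genes, -0.056 without the highest cell, -0.060 without the 4 alike H9 cells, and -0.021 without the unusual cells. Against bulk (0.13), it was 0.12 at 96 per lane, 0.14 with equal weight per cell, -0.031 with TMM, -0.045 with median-of-ratios factors and 0.11 without the unusual cells.

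Median relative spread in H1 (0.05) was 0.040 at 96 per lane, 0.13 without the highest cell, 0.025 without mitochondrially encoded genes, 0.0049 without the cells with the fewest genes and 0.089 without the unusual cells. In H9 (0.17) it was 0.23 at 96 per lane, 0.21 without the cells with the fewest genes, 0.13 without the unusual cells and 0.16 without the alike cells. Genes with at least 2 times the spread numbered 1 in H1 without mitochondrially encoded genes, and 1 in H9 without the highest cell or without the cells with the fewest genes. Those with a spread at least 2 times smaller numbered 5 in H1 without the unusual cells, and 2 in H9 without the highest cell or without mitochondrially encoded genes.

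Within complexes and task groups the median correlation in H1 (0.04) was 0.031 at 96 per lane, 0.18 with Pearson correlation, 0.023 with the depth trend removed, -0.00013 without the cells with the fewest genes and 0.014 without the unusual cells. In H9 (0.07) it was 0.093 with Pearson correlation, 0.084 with the trend removed and 0.053 without the cells with the fewest genes. Among MCM2 to MCM7 it was 0.33, 0.22, 0.21 and 0.22 in H1 with Pearson correlation, the trend removed, without the cells with the fewest genes and without the unusual cells. In H9 these values were 0.13, 0.17, 0.22 and 0.17, and 0.15 without the alike cells. Pairs at 0.3 or more numbered 159 in H1 and 33 in H9 with Pearson correlation, 18 and 34 without the cells with the fewest genes, and 21 in H1 without the unusual cells. The cause of the high Pearson count in H1 was not tested. No share of all gene pairs is given under these settings, so the counts are not read as a trait of the list.

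The median correlation with G2/M genes in H1 (-0.07) was -0.080 at 96 per lane, 0.039 with Pearson correlation, -0.092 with the trend removed, -0.093 without the cells with the fewest genes, and -0.11 without the unusual cells. In H9 (-0.03) it was -0.00011 with Pearson correlation, -0.050 with the trend removed, -0.065 without the cells with the fewest genes and -0.044 without the unusual cells. Detection at 5 counts gave a median of 98.9% of H1 cells. Taking the depths as unpaired, with no block by cell number, moved the median log2 ratio between depths from -0.004 to 0.0074 in H1 and from -0.016 to -0.0096 in H9.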
